A study of Mus musculus with 6 samples.

Results

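The immunoglobulin heavy-chain locus on mouse Chr. 12 was followed across 6 RNA-seq libraries. Its genes were taken by name: every deposited gene name starting with *Ighv* (a variable, or V, segment) and the constant genes *Ighm*, *Ighd*, *Igha*, *Ighe*, *Ighg1*, *Ighg2b*, *Ighg2c* and *Ighg3*. The files held 142 such names of 48733 named genes: 138 V names and 4 of the 8 constant names (*Igha*, *Ighe*, *Ighg1* and *Ighg3*). All 142 matched RefSeq on GRCm38.p6. Of the libraries, 3 were labelled bone (cortical femur with the marrow removed) and 3 were labelled osteoblasts, which were differentiated from bone marrow stromal cells with ascorbic acid (50 µg/ml), beta-glycerophosphate (10 mM) and dexamethasone (10 nM) for 8 days, beginning 7 days after marrow isolation. Every mouse was of CC016/GeniUnc, an inbred strain of the Collaborative Cross, and the labels give no mutant allele, treatment or age of the animals. The study's methods give 3 mice, and which mouse gave which library is not given, so a p-value measures the spread between these libraries. Levels are FPKM as deposited, that is, sequenced fragments scaled to the length of the transcript and to the reads aligned in the library.

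An antibody heavy chain is encoded by a V, a D and a J segment that are joined in developing B cells, in front of a constant gene that sets the isotype. *Ighm* (IgM) and *Ighd* (IgD) are used first, and class switching brings in the IgG, IgE or IgA genes. B cells develop in bone marrow, where plasma cells, which secrete antibody, also reside.

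Several of the deposited names covered more than the gene they name. Of the 138 V names, 124 belonged to features over a single V segment (span 276 to 572 bp, median 434 bp) and 14 to features over several. The feature named *Igha* ran from 113254830 to 113430779 on Chr. 12 (GRCm38, minus strand) and held all 8 constant genes and 4 J segments of RefSeq, although *Igha* itself lies at 113256204 to 113260236. *Ighm* (113418826 to 113422730), *Ighd*, *Ighg2b* and *Ighg2c* had no named feature of their own, and IgM could not be separated from IgA. In the libraries labelled bone 3, osteoblasts 2 and osteoblasts 3, the FPKM of this feature was 118 to 128 times the value its deposited coverage gave, against a median of 1 for features of a single gene. Levels of wide features were therefore not compared with those of single segments. Some single segments lie inside the span of a wide feature on the same strand. *Ighv1-77* and *Ighv8-12* lie inside the feature named *Ighv1-63*, and *Ighv1-34* inside those named *Ighv1-7* and *Ighv1-26*. How reads were divided between such features cannot be seen, and the levels, ranks and shares of single segments below depend on it.

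The V segments resemble each other, which bears on how reads of 75 bases are divided among them. Coding sequences for 37 V genes were available in GENCODE vM1 (from the C57BL/6J reference, not from CC016/GeniUnc), 22 of them for single-segment names. Of the 37, 8 shared a stretch of 75 bases or more with another, and *Ighv1-62-2* and *Ighv1-71* were identical throughout. For the 35 with at least 200 aligned bases, identity to the nearest other V gene ranged from 66.6% to 100%, with a median of 92.8%. *Ighv8-5* and *Ighv8-12* were the highest of the 22 in mean FPKM. Their last 75 annotated bases, equal to a read in length, are shown 5′ to 3′ with the 2 positions that differ in capitals.
Ighv8-5: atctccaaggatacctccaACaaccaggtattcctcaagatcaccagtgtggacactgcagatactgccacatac
Ighv8-12: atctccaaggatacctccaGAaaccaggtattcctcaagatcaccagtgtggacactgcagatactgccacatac

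The 3′ end of a V segment encodes the conserved cysteine before the third complementarity-determining region, where the D segment is joined. The last 60 bases of 4 single segments show how far this end is shared between families, with the codons for tyrosine or phenylalanine and cysteine (TACTGT or TTCTGT) in capitals.
Ighv11-2: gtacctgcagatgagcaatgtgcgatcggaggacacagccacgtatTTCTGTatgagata
Ighv3-8: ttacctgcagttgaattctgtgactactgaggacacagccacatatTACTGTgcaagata
Ighv1-54: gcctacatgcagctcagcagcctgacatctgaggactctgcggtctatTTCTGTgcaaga
Ighv1-59: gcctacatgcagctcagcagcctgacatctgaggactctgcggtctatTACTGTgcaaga
On the coding strand, 26 of the 37 V sequences (70.3%) held these letters in their last 15 bases, against 0.841% of all 55443 coding sequences. *Ighv1-54* and *Ighv1-59* differed at 1 of these 60 positions, and were 85.9% identical over 348 aligned bases. The annotated ends of *Ighv8-5* and *Ighv8-12* printed above stop at the letters tac and count among the sequences without TACTGT or TTCTGT. How far the place where the annotation ends bears on the 70.3% was not examined.

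Depth, read from the ratio of coverage to FPKM, was 13.6 to 22.6 M read pairs. The libraries did not divide by label. Neutrophil markers summed to 14246 FPKM in bone 3, 15575 in osteoblasts 2 and 17225 in osteoblasts 3, against 0.430 to 5.51 in bone 1, bone 2 and osteoblasts 1, and erythroid markers to 35064 or more against 7.26 or less. The T cell list summed to 22.2 to 35.1 against 0 to 0.0392 and skeletal muscle to 221 to 943 against 0.0324 to 1.09 in the same libraries. Macrophage markers went the other way (393 to 518 against 1327 to 2636), while osteoblast markers overlapped in sum (3564 to 4363 against 3151 to 5043). Within the osteoblast list, *Ibsp* (43.1 to 91.3 against 986 to 1278) and *Alpl* (66.0 to 94.1 against 95.4 to 204.6) were lower in bone 3, osteoblasts 2 and osteoblasts 3. *Bglap2* was higher there (1641 to 1959 against 264.2 to 512.9), and the other listed members overlapped. Osteocyte markers did not move together. The 4 listed summed to 47.7, 51.7 and 45.4 FPKM in bone 3, osteoblasts 2 and osteoblasts 3 and to 112.4, 55.3 and 132.6 in bone 1, bone 2 and osteoblasts 1. *Sost*, which osteocytes secrete, was at 15.8 FPKM or more in the former and at 0.198 or less in the latter, whereas *Dmp1*, a matrix protein of osteocytes, was at 22.5 to 24.3 against 50.0 to 126.6, and *Phex* overlapped. The neutrophil, erythroid, T cell, muscle and macrophage lists thus divided the libraries in another way than the labels, and whether a library carries the label of another was not tested. The labels were kept as deposited, every mean and difference between labels below depends on them, and the part of the marker differences in the results was not tested. In bulk RNA, fewer cells of a type and less RNA per cell cannot be told apart. Unnamed features held 71.5% of all FPKM in bone 2 and 65.0% in osteoblasts 1, against 27.4% to 30.7% in the others.

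Heavy-chain RNA was abundant in 1 library labelled bone and 2 labelled osteoblasts and close to absent from the rest. The feature named *Igha* was at 0.0625 FPKM in bone 1, 0 in bone 2 and 601.5 in bone 3. It was at 0.0676 in osteoblasts 1, 908 in osteoblasts 2 and 893.6 in osteoblasts 3. Both labels thus held low and high libraries, and their ranges overlapped. The mean was 200.5 ± 347.3 FPKM for bone and 600.5 ± 520.1 for osteoblasts (SD, n = 3 each). On log2(FPKM + 1), osteoblasts were higher by 3.47, and an exact two-sided permutation test gave p = 0.2, where the smallest p this design allows is 0.1.

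**Figure D1:**
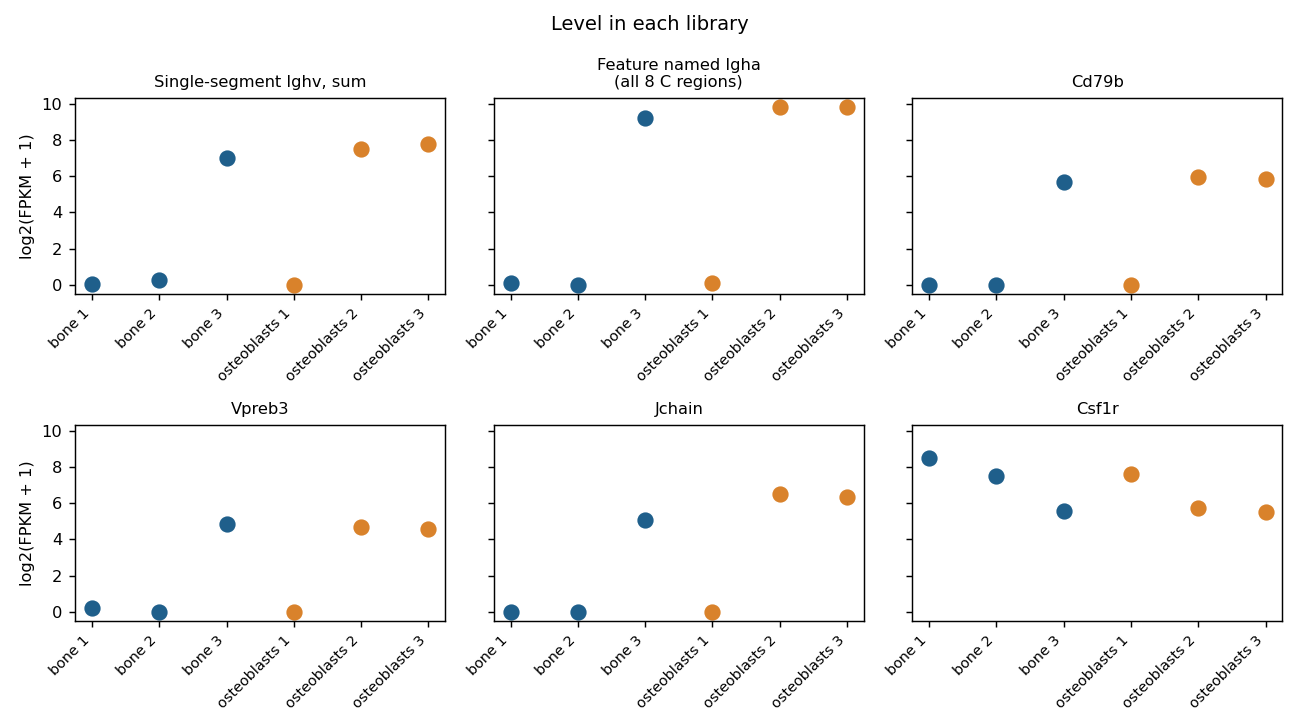
Level in each of the 6 libraries on a log2(FPKM + 1) axis, blue for the label bone and orange for osteoblasts, 1 point per library. The summed single-segment V names, the feature named *Igha*, *Cd79b*, *Vpreb3* and *Jchain* were high in bone 3, osteoblasts 2 and osteoblasts 3, while *Csf1r*, a macrophage gene, was lower in those libraries (44.0 to 51.7 FPKM) than in the other libraries (178.5 to 362.7).

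Some constant genes had a feature of their own. *Ighg3* (IgG3) was at 4.96, 3.23 and 3.04 FPKM in bone 3, osteoblasts 2 and osteoblasts 3, and *Ighg1* (IgG1) at 1.84, 0.931 and 2.46. Both were at 0 in bone 1, bone 2 and osteoblasts 1. *Ighe* (IgE) was at 0 in 5 libraries and at 0.0299 in osteoblasts 2. That is below the 0.133 FPKM that 3 read pairs give on a transcript of 1 kb. This limit falls with length, and the feature of *Ighe* spans 3989 bp. An unnamed feature at 113406604 to 113416324, over RefSeq *Ighd*, was at 6.68, 8.07 and 20.0 FPKM in bone 3, osteoblasts 2 and osteoblasts 3 and at 0 elsewhere. Of the sum of these separate features, the one at *Ighd* took 49.6% in bone 3, 65.9% in osteoblasts 2 and 78.4% in osteoblasts 3, *Ighg3* took 36.8%, 26.3% and 11.9%, and *Ighg1* took 13.7%, 7.59% and 9.64%. The order *Ighd*, *Ighg3*, *Ighg1* held in those 3 libraries. When added to that sum, the feature named *Igha* took 97.8%, 98.7% and 97.2% of the FPKM. The FPKM of *Ighg3* and *Ighg1* was 2.16 to 2.41 times the value their deposited coverage gave, against 118 to 128 times for that feature. These percentages therefore do not show how large a part the separate features were. Since the feature named *Igha* spans all constant genes, shares of the isotypes in the whole were not obtained.

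Many V segments were detected, and none dominated among the single-segment names. Summed over the 124 single-segment names, FPKM was 0.0347 in bone 1, 0.227 in bone 2 and 128.9 in bone 3, and 0 in osteoblasts 1, 177.8 in osteoblasts 2 and 221.6 in osteoblasts 3. At 1 FPKM or more there were 28 segments in bone 3, 30 in osteoblasts 2 and 33 in osteoblasts 3, and none in bone 1, bone 2 or osteoblasts 1. The highest segment took 9.29%, 8.86% and 7.98% of the sum in bone 3, osteoblasts 2 and osteoblasts 3, the 5 highest took 34.3%, 39.7% and 33.9%, and the 10 highest took 56.1%, 62.7% and 58.9%. The effective number of segments (the exponential of the Shannon entropy of the shares) was 32.1, 28.9 and 31.0. With all 138 V names, whose sums mix wide and single features, 39, 41 and 45 reached 1 FPKM and the 10 highest took 55.6%, 64.9% and 55.4%. The highest name took 11.2% in bone 3 (*Ighv5-1*), 25.4% in osteoblasts 2 and 15.9% in osteoblasts 3 (*Ighv1-63* in both). Each is a wide feature with FPKM far above the value its deposited coverage gave. Single-segment names held 48.0%, 42.7% and 51.5% of that sum. Whether a segment dominates inside a wide feature could not be seen.

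In the libraries with little heavy-chain signal, single members were above 0. Bone 1 had *Ighv9-1*, a feature over 5 V segments, at 0.306 FPKM and *Ighv9-4* at 0.0347, and bone 2 had *Ighv8-6* and *Ighv8-9* at 0.113 each. All 138 V names were at 0 in osteoblasts 1. A V feature of median length needs 0.306 to 0.510 FPKM for 3 read pairs, depending on the library, and the single-segment values above rest on less than that. These limits cover counting error only.

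**Figure D2:**
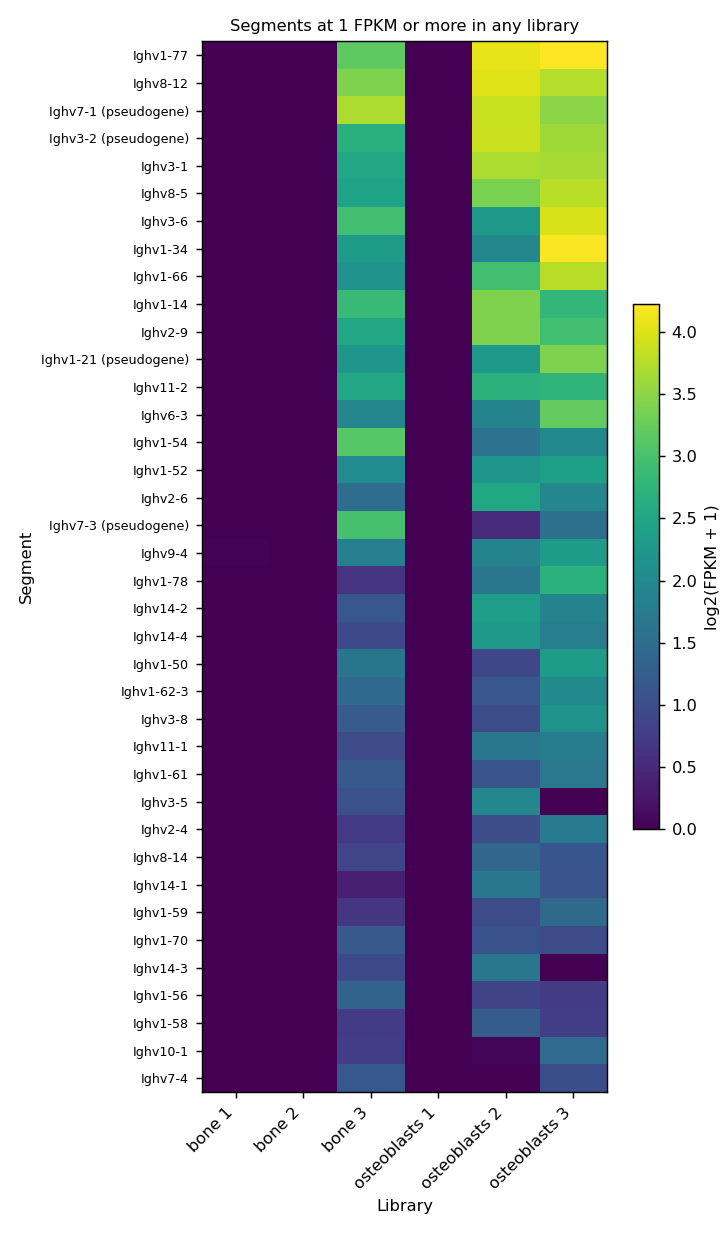
Level of the 38 single-segment V names at 1 FPKM or more in any library (rows, ordered by mean FPKM) in the 6 libraries (columns), coloured by log2(FPKM + 1). The columns bone 3, osteoblasts 2 and osteoblasts 3 carry the signal, and 21 of the 38 reached 1 FPKM in each of these libraries.

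*Ighv1-77* (Chr. 12, 115861867 to 115862355) was the highest single segment in mean FPKM. It was at 8.01 in bone 3, 15.8 in osteoblasts 2 and 17.7 in osteoblasts 3, and at 0 in bone 1, bone 2 and osteoblasts 1. *Ighv8-12* (115647945 to 115648387), one of the pair printed above, reached 9.55, 15.3 and 12.5 in the same order of libraries. *Ighv8-5* (115067560 to 115068002), the other of that pair, reached 4.46, 9.39 and 12.9. These 3 lie in the far part of the locus, at least 1645 kb from *Ighm*.

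Segments near the constant region reached similar levels. *Ighv3-1* (113964388 to 113964818) was at 4.82, 12.1 and 11.7 FPKM in bone 3, osteoblasts 2 and osteoblasts 3. *Ighv3-6* was at 6.69, 3.88 and 14.7. *Ighv1-34*, from the middle of the locus, was at 3.99, 2.89 and 17.3 and was the segment that varied most, 5.996-fold, among the 21 segments at 1 FPKM or more in each of these libraries. *Ighv11-2* varied least, 1.22-fold, at 4.74, 5.58 and 5.76. *Ighv1-54* went against the general order, with 7.70 in bone 3, 2.06 in osteoblasts 2 and 3.05 in osteoblasts 3. Its near neighbour in sequence at the 3′ end, *Ighv1-59*, was at 0.593, 0.964 and 1.77.

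Some of the high names are pseudogenes in RefSeq. *Ighv7-1* (113896408 to 113896946) was the highest single segment of bone 3, at 12.0 FPKM, and was at 13.6 in osteoblasts 2 and 10.2 in osteoblasts 3. *Ighv3-2* was at 5.44, 13.8 and 11.3, and *Ighv1-21* at 3.71, 3.80 and 9.66. *Ighv7-3* was at 7.00 in bone 3, 0.419 in osteoblasts 2 and 1.96 in osteoblasts 3. These 4 were the only ones of 52 single-segment pseudogenes at 1 FPKM or more in any library, against 34 of the 72 other V segments. Pseudogenes took 22.7%, 18.9% and 15.9% of the single-segment sum in bone 3, osteoblasts 2 and osteoblasts 3. Of the 48 V names at 0 in all 6 libraries, 34 were pseudogenes. RefSeq describes the reference strain, and the state of these genes in CC016/GeniUnc was not examined.

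V families, which group segments by sequence, were used unequally. Family 1, with 55 of the 124 single segments, took 38.2% of the sum in bone 3, 33.9% in osteoblasts 2 and 43.1% in osteoblasts 3. Family 3, with 8 segments, took 15.1%, 18.9% and 18.6%. Family 8, with 14, took 11.9%, 15.2% and 12.7%. Family 7, with 4, took 16.0%, 8.47% and 5.95%, and its *Ighv7-1* and *Ighv7-3* were the pseudogenes named above. The 10 single-segment names of family 5, of which 9 are pseudogenes, were at 0 in all libraries, though *Ighv5-1* named a wide feature over 21 V segments. With all 138 V names, where a wide feature counts under the family of its name, the shares moved: family 5 took 13.2%, 13.9% and 8.51%, family 7 took 7.68%, 3.62% and 3.06%, family 3 took 7.25%, 8.08% and 9.55%, and family 1 took 44.2%, 50.4% and 47.2%. Families 12, 13, 15 and 16 had no segment at 1 FPKM.

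**Figure D3:**
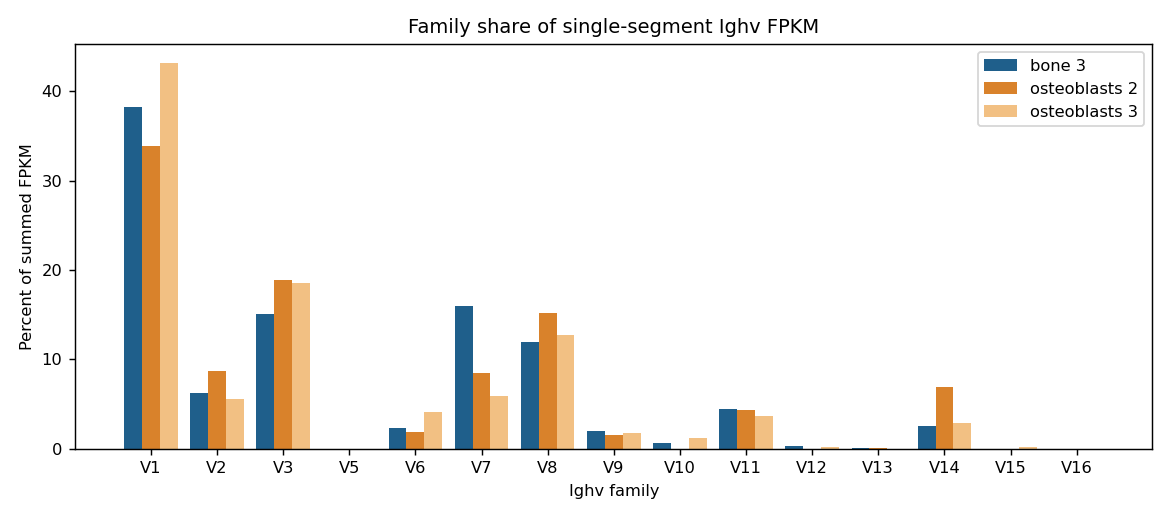
Share of the summed single-segment V FPKM (vertical axis, percent) taken by each V family (horizontal axis) in bone 3, osteoblasts 2 and osteoblasts 3, 1 bar per library. Family 1 was the largest in each, at 33.9% to 43.1%, and family 7 ranged from 5.95% in osteoblasts 3 to 16.0% in bone 3.

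Signal of the single-segment names was spread along the locus with less in its middle. All 138 V names were cut into 3 parts by their rank of distance from *Ighm*, and the 124 single segments were summed within each part. The nearest 41 (151.5 to 891.5 kb) took 45.6% of the sum in bone 3, 48.3% in osteoblasts 2 and 37.1% in osteoblasts 3. The middle 40 took 16.5%, 14.2% and 23.6%, and the farthest 43 (1457 to 2587 kb) took 37.8%, 37.5% and 39.3%. Among the 72 segments that are not pseudogenes, the farthest 28 took the largest share, with 48.8%, 46.2% and 46.6%, and the middle 22 the smallest, with 17.3%, 13.6% and 22.2%. The part nearest *Ighm* was therefore the largest in bone 3 and osteoblasts 2 only when pseudogenes were counted. Wide features lie in all 3 parts and are left out of these shares. One of them, named *Ighv1-7*, ran over 45 V segments from the middle part into the farthest. It was at 9.52, 9.85 and 6.37 FPKM in bone 3, osteoblasts 2 and osteoblasts 3. The share of each part in all V signal was therefore not obtained.

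**Figure D4:**
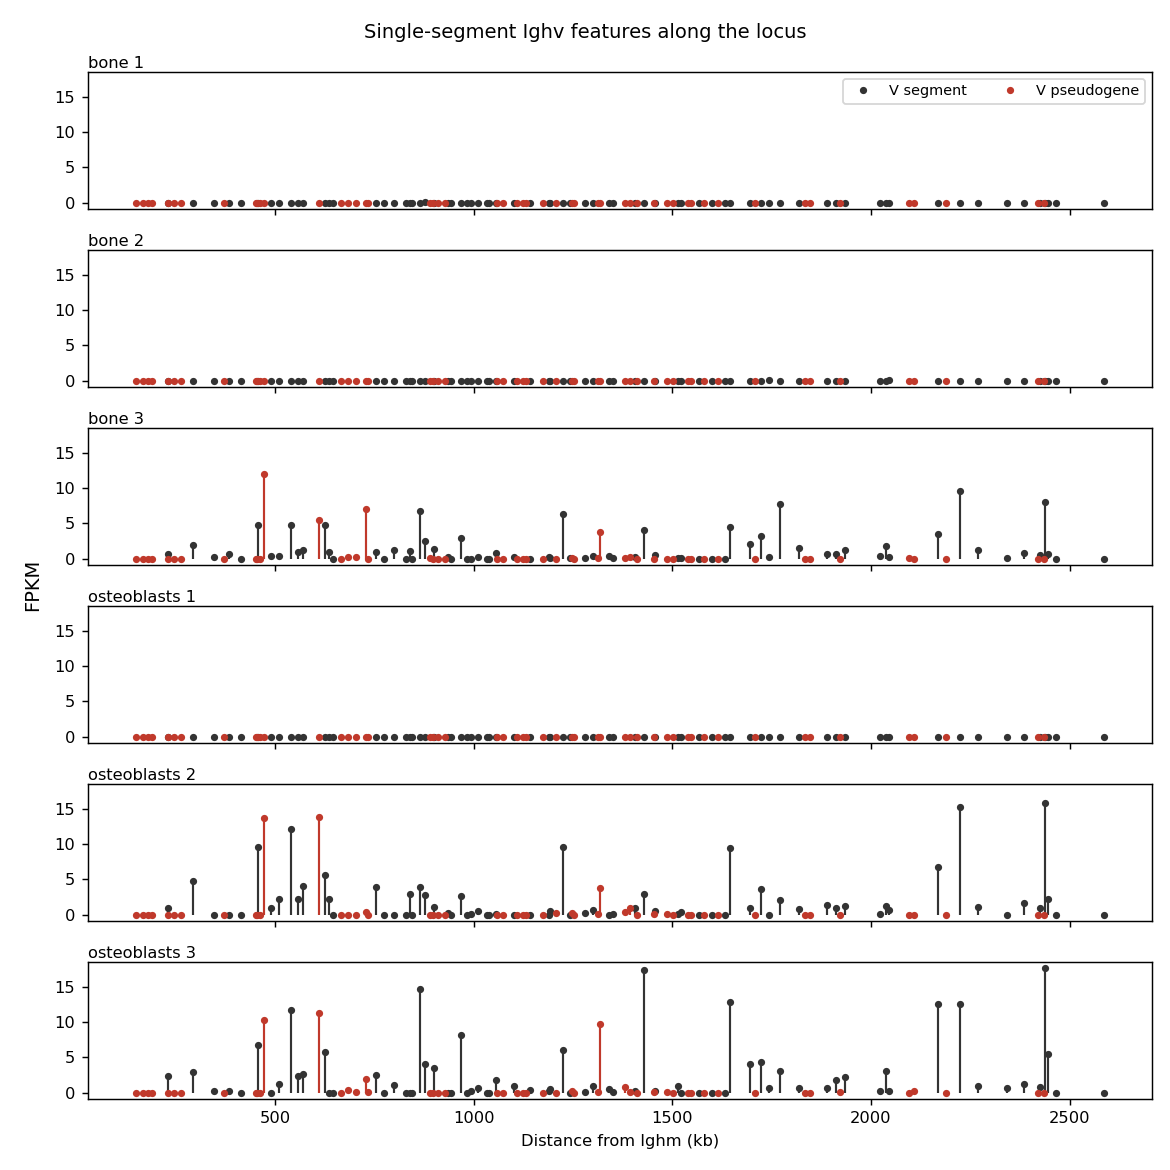
FPKM of the 124 single-segment V names (vertical axis, linear) against distance from *Ighm* in kb (horizontal axis), 1 panel per library, black for V segments and red for pseudogenes. Bone 1, bone 2 and osteoblasts 1 stay close to 0, and in bone 3, osteoblasts 2 and osteoblasts 3 the peaks recur at the same segments, up to 17.7 FPKM.

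The same segments tended to be high in the libraries with signal. Over the 124 single segments, Spearman's rho was 0.856 between bone 3 and osteoblasts 2, 0.872 between bone 3 and osteoblasts 3 and 0.801 between osteoblasts 2 and osteoblasts 3. The segments share a reference, an assembly of transcripts and reads that can match several of them, and many are at 0 in both libraries, so rho is a description. Of the segments at 1 FPKM or more, osteoblasts 2 shared 23 with bone 3, which is 82.1% of those in bone 3 and 76.7% of those in osteoblasts 2. Osteoblasts 3 shared 25 with bone 3 (89.3% and 75.8%) and 26 with osteoblasts 2 (86.7% of those in osteoblasts 2 and 78.8% of its own). Of the 10 highest segments, 6 or 7 were shared by each pair. Among segments at 1 FPKM or more in both libraries, the median absolute log2 ratio was 0.68 between bone 3 and osteoblasts 2, 1.05 between bone 3 and osteoblasts 3 and 0.59 between osteoblasts 2 and osteoblasts 3.

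**Figure D5:**
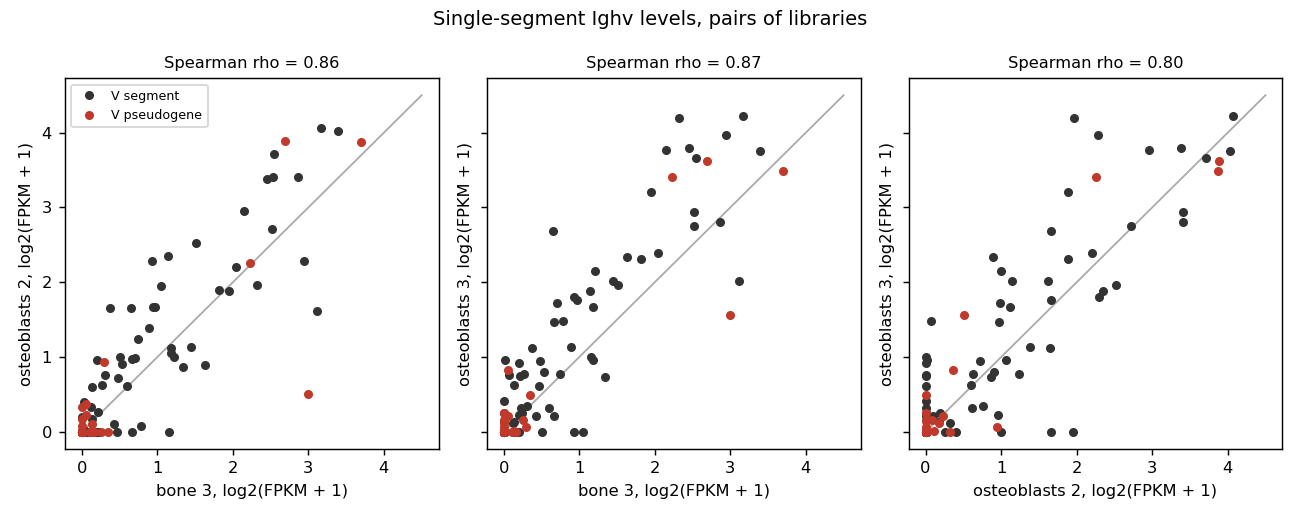
Level of the 124 single-segment V names in pairs of libraries, log2(FPKM + 1) on both axes, black for V segments and red for pseudogenes, with a grey line at equal level. Segments high in a library tended to be high in the other (Spearman's rho 0.80 to 0.87) without lying on the line of equal level, and *Ighv1-34* lies above it in the panels with osteoblasts 3 (17.3 FPKM against 3.99 and 2.89).

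The wide V features were high in the same libraries. *Ighv1-63*, over 30 V segments, was at 29.8, 105.7 and 68.5 FPKM in bone 3, osteoblasts 2 and osteoblasts 3. *Ighv5-1* was at 30.1, 46.9 and 31.7. In these libraries, the FPKM of *Ighv1-63* was 628.5 to 658.8 times the value its deposited coverage gave, and that of *Ighv5-1* 201.9 to 206.4 times. Their levels therefore do not rank them above other V names. *Ighv9-1* was at 16.6, 13.5 and 30.2, *Ighv8-8*, over 15 segments, at 12.1, 12.9 and 20.3, and *Ighv1-2*, over 6, at 14.0, 20.7 and 4.28. Only *Ighv9-1* of these 5 was above 0 in another library, with the 0.306 in bone 1 given above. In RefSeq, 45 V segments had no named feature, and 42 of these lay inside wide named ones.

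Compared between the labels with limma on log2(FPKM + 1), no heavy-chain gene passed an adjusted p of 0.05. Of 142 members, 37 had a mean of 1 FPKM or more and were tested, and 0 were called, beside 0% of the 12112 genes tested. At an unadjusted p under 0.05 there were 0 members and 17 genes. The log2 difference was higher in osteoblasts for 36 of the 37, with a median of 1.11 against 0.12 over all genes, of which 62.6% were higher in osteoblasts. These 37 passed the filter only through the libraries where they were high. *Ighv1-63* differed by 2.64 ± 1.85 and *Ighv1-77* by 1.71 ± 1.22 (log2, SE, n = 3 each, limma adjusted p = 0.999 for both). *Ighv7-3* was the exception, at -0.31 ± 0.84. For no member did the 3 libraries of one label all lie above those of the other, beside 0.916% of all genes. The median SD within a label was 1.71 for the members and 0.59 for all genes.

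The call rested on which libraries entered. Without the library labelled bone 3, limma called 77 genes and 2 members, *Igha* and *Ighv1-63*, and without osteoblasts 1 it called 300 genes and 16 members, and each member called was higher in osteoblasts. Leaving out any other library gave 0 members. *Igha* and *Ighv1-63* name wide features with FPKM far above the value their deposited coverage gave.

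Genes that work with the heavy chain were compared in the same way, and 0 of each list were called. The light-chain list (148 names listed of 150) summed to 946.7 FPKM in bone 3, 1363 in osteoblasts 2 and 1471 in osteoblasts 3, against 0 to 0.336 in the other libraries. The names not listed were *Igkc*, the kappa constant gene, and *Iglc3*. *Igkv3-7*, a kappa V name, led the list at 473.5, 776 and 787. Whether the feature of that name covers more than the segment was not examined. *Igkv1-122* was at 132.3, 98.6 and 171.4 and at 0 in the other libraries. *Iglc1*, a lambda constant gene, was at 34.3, 36.2 and 57.9 and at 0 in the other libraries. Of 19 D and J names, 12 were at 0 in all 6 libraries, and the highest value was 2.44 FPKM for *Ighd6-1* in bone 3. *Ighd2-3* reached 0.785 and *Ighd1-1* 0.409, both in osteoblasts 3.

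The partners that bring the heavy chain to the cell surface were at 1 FPKM or more in the libraries with heavy-chain signal, for 6 of 6 genes in each. *Cd79b*, which signals for the B cell receptor, was at 50.7 in bone 3, 60.0 in osteoblasts 2 and 55.5 in osteoblasts 3, and its partner *Cd79a* at 24.8, 27.3 and 27.5. Both were at 0 in bone 1, bone 2 and osteoblasts 1. *Vpreb3* was at 27.6, 24.7 and 22.6, and *Igll1*, part of the surrogate light chain of pre-B cells, at 13.3, 5.78 and 14.2. *Pax5*, which defines B cells, was at 5.46, 5.04 and 5.72, with 0 in the other libraries. Of the 8 B cell markers, only *Ebf1*, which stromal cells also express, reached 1 FPKM in bone 1, bone 2 and osteoblasts 1 (20.5, 7.27 and 9.68).

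Genes of antibody secretion were mixed. *Jchain*, which joins IgM and IgA into polymers, was at 33.0 FPKM in bone 3, 89.1 in osteoblasts 2 and 78.5 in osteoblasts 3, and *Mzb1* at 11.5, 16.8 and 9.54. Both were at 0 in the other libraries. *Xbp1*, a regulator of secretory cells used in many tissues, was at 79.6, 40.1 and 51.1 in bone 1 to 3 and 21.7, 59.6 and 62.8 in osteoblasts 1 to 3, and did not follow the heavy chain. *Fkbp11*, a folding enzyme of the secretory pathway, was higher in bone 1, bone 2 and osteoblasts 1 (14.8 to 25) than in the other libraries (5.79 to 8.25). *Tnfrsf17*, a plasma cell receptor, was at 0.624, 1.02 and 0.976 in bone 3, osteoblasts 2 and osteoblasts 3 and at 0 elsewhere.

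Of the 10 genes of V(D)J recombination, 7 were listed. *Rag2*, a subunit of the recombinase, was at 0.448, 0.236 and 0.426 FPKM in bone 3, osteoblasts 2 and osteoblasts 3 and at 0 in the other libraries. *Xrcc6*, a broadly used DNA repair gene, was the highest of the list and was above 0 in all libraries. It was at 15.2 to 23.1 in bone 3, osteoblasts 2 and osteoblasts 3 and at 4.03 to 8.24 in the others. *Nhej1*, an end-joining factor, was at 3.65 to 4.56 and at 1.56 to 2.06 in the same sets, while *Dclre1c*, the Artemis nuclease, overlapped (2.73 to 4.97 over all libraries). Not every gene of the list was higher in bone 3, osteoblasts 2 and osteoblasts 3. Among genes of class switching and hypermutation, the mismatch repair gene *Msh6* was above 1 FPKM in all libraries. It was at 5.99 to 11.3 in bone 3, osteoblasts 2 and osteoblasts 3 and at 2.49 to 4.44 in the others. *Ung*, which removes uracil from DNA, was at 3.72 to 4.27 and at 0.440 to 0.578 in the same sets.

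*Pou2af1*, the B cell coactivator of octamer factors that bind V promoters, was at 9.02, 12.8 and 11.3 FPKM in bone 3, osteoblasts 2 and osteoblasts 3 and at 0 in the other libraries. The factors themselves, *Pou2f1* (1.301 to 4.265) and *Pou2f2* (0.791 to 2.74), overlapped between those sets of libraries. *Fcmr*, the receptor for IgM, was at 5.57, 7.55 and 9.93 with 0 in the others, while *Fcgrt*, the neonatal Fc receptor, ranged from 42.9 to 97.9 over all libraries. *Fcgr2b*, the inhibitory IgG receptor of B cells and macrophages, was at 10.0 to 12.9 in bone 3, osteoblasts 2 and osteoblasts 3 and at 28.0 to 37.3 in the others.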

How the data were processed

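RNA-seq was measured in 3 libraries labelled bone and 3 labelled osteoblasts. By the study's methods and the submitters' processing notes, the authors made libraries from total RNA with the TruSeq RNA v2 kit, which does not keep strand, aligned paired reads of 75 bases to GRCm38 with HISAT2 2.0.5 (an index that includes known SNPs), and used SAMtools 1.7 and StringTie 1.3.3. The authors deposited FPKM, TPM and coverage signal per feature, and no counts. FPKM and TPM are normalized values, and the deposited coverage is a mean depth per base. How reads were divided among near-identical V segments is set by that software.

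Rows were summed by name (2 V names had 2 rows). A name was called single-segment where its span held no other RefSeq V segment. Depth was read from the commonest ratio of coverage to FPKM. FPKM were compared as log2(FPKM + 1) for genes with a mean of at least 1, with limma 3.58.1 (R 4.3.3, eBayes with a trend) and Benjamini-Hochberg adjustment, after a test on simulated data, and the feature named *Igha* with an exact permutation test. Sums over members got no test. Sequences came from GENCODE vM1 by name. Other steps used Python 3.11.15, pandas 2.3.3, numpy 2.4.6, scipy 1.17.1, Biopython 1.88 and matplotlib 3.10.9.

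The members and lists were chosen with earlier results of these data known. Named in the text are all constant genes, the 10 V names highest in mean FPKM, the 3 highest of any library, and the 3 highest members of each list of related genes. Further genes were named after their values were seen. Some genes of these lists are not reported here. *Ighm* was to be tested alone, but no feature carries that name, so the feature named *Igha* was tested instead, a choice made after seeing the data. So were the results on single-segment names.

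The replicate numbers occur under both labels and were not taken as pairs. Alternatives were other pseudocounts, filters and scalings, TPM, limma without a trend, a replicate block, and leaving out each library.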

Additional observations from a re-analysis of the deposited data

Results flagged for a closer look

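Unnamed features in the heavy-chain locus carried signal that no comparison above used. An unnamed minus-strand feature over 33 V segments was at 30.1 FPKM in bone 3, 25.6 in osteoblasts 2 and 38.6 in osteoblasts 3, and at 0 in bone 1, bone 2 and osteoblasts 1. On the plus strand, an unnamed feature over 13 segments was at 7.36, 17.0 and 9.42 in the same order and at 0 in the other libraries. Another plus-strand feature, over 5 segments, was at 2.19, 0.217 and 6.11, at 0.148 in bone 1 and at 0 in bone 2 and osteoblasts 1. The segments lie on the minus strand, and reads without strand cannot separate a gene from a feature opposite it.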

How the results depend on the processing

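The count of members called between the labels (0 of 37) was 0 with a pseudocount of 0.1 or 0.01, TPM, scaling to named genes, a lower filter, no filter or no trend. With a replicate block, limma called 49 genes and 2 members (*Igha* and *Ighv1-63*), although deviations from the label means correlated at 0.841, -0.747 and 0.83 for replicates 1, 2 and 3 (12112 genes), and bone 2 correlated best with osteoblasts 1 (0.803), so the numbers were not taken as pairs. Whether libraries of a number share a mouse is not given. Leaving out 1 library gave 0 to 300 genes and 0 to 16 members. For the feature named *Igha*, osteoblasts were higher by 3.47 (log2), and by 1.84 to 6.71 when 1 library was left out. The exact permutation test gave p of 0.2 to 0.4 in these settings. Without bone 3 or without osteoblasts 1, the exact permutation p was 0.2, although every remaining osteoblast library lay above every bone library. With so few libraries, such a p cannot decide whether the labels differ. An exact permutation test that flips signs within replicate numbers gave p = 0.25, the smallest it allows. The summed V FPKM was higher by 2.89 (1.42 to 5.80 when 1 library was left out), and the number of V names at 1 FPKM or more by 15.7 (7.5 to 30). Other settings kept the direction. Without RefSeq pseudogenes, the 10 highest V names took 61.2% in osteoblasts 3, against 55.4%. Isotype shares from read pairs were not run, since coverage times span does not give reads for genes with introns. Without counts, no interval can be given for a single FPKM value.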
